A study of Mus musculus with 9 samples.

Results

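The genes described here encode the cargo and accessory proteins of cytotoxic granules, together with the Fas ligand. They were taken by symbol from the table of transcript abundances, where they are written GZMA, GZMB, GZMC, GZMK, GZMM, PRF1, SRGN, NKG7 and FASL, and all 9 were found among its 23415 rows. The mouse symbols Gzma, Gzmb, Gzmc, Gzmk, Gzmm, Prf1, Srgn, Nkg7 and Fasl are used below. All 9 passed the filter on low values, at least 1 TPM in at least 4 libraries, which left 11495 genes for testing. TPM is transcript abundance corrected for transcript length and scaled to the same total in every library, so levels of different genes can be compared on this scale.

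The libraries hold RNA of CD4+ T cells from the lamina propria of the colon in T cell transfer colitis, in which naive T cells placed into mice without lymphocytes of their own cause inflammation of the large bowel. Naive CD4+ CD25- CD45RBhigh donor cells came from CD160 knockout mice (4 libraries) or from wildtype littermates (5 libraries, the controls), and every recipient was Rag1-/-. About the time of worst disease 5000 CD4+ cells were sorted for each library. The labels give neither the deleted part of Cd160 nor the strain, age or number of donor and recipient mice behind a library, and the p-values given here reflect variation among libraries only, part of which may be technical. A table entry for the reporter tdTomato stood at 0 in all 4 knockout libraries and at 2.52 to 8.78 TPM in the 5 controls; the labels name no reporter, and an effect of this difference and one of CD160 loss cannot be told apart.

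Killer lymphocytes store granzymes, a family of serine proteases, in acidic granules. Perforin opens the membrane of the target cell to them, and serglycin, a proteoglycan, holds them in the granule. CD8 T cells and natural killer (NK) cells are the best-known users of this machinery, but CD4+ T cells of the Th1 kind also transcribe parts of it in inflamed tissue. Gzma encodes the tryptase granzyme A and Gzmk the related granzyme K. Gzmb encodes granzyme B, which cleaves after aspartate and activates caspases, Gzmc the neighbouring granzyme C, and Gzmm granzyme M. Prf1 encodes perforin and Srgn serglycin. Nkg7 encodes a membrane protein of granules needed for their release, and Fasl the ligand that triggers death through the receptor Fas without granules.

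In GRCm38 the granzymes lie in clusters. The spans given here are those of GENCODE M21. The RefSeq starts used further on can differ from them, and that of Gzmk lies inside its GENCODE span. Gzma occupies chromosome 13, 113093825 to 113100981, and Gzmk the same chromosome, 113171608 to 113225908. Gzmb lies on chromosome 14, 56258838 to 56262260, and Gzmc at 56231441 to 56234656 beside it. Chromosome 10 holds Gzmm at 79689020 to 79695261, Prf1 at 61297833 to 61304680 and Srgn at 62493833 to 62527451. Nkg7 lies on chromosome 7, 43437073 to 43438249, and Fasl on chromosome 1, 161780689 to 161788495.

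The 200 bases before the RefSeq gene start (GRCm38.p6, printed 5′ to 3′ in the sense of the gene) are shown for the 4 genes with the highest Pearson correlations with one another across 8 libraries, Gzma, Gzmb, Prf1 and Nkg7, and for Gzmk, which followed them less closely and, without control replicate 1, differed between the groups in the opposite direction. Capitals mark the hexamer TGTGGT or its reverse complement ACCACA, the core bound by RUNX factors, which are known regulators of cytotoxic genes. The stretches are chr13:113100982-113101181 on the minus strand for Gzma, chr14:56262335-56262534 on the minus strand for Gzmb, chr10:61297636-61297835 on the plus strand for Prf1, chr7:43436938-43437137 on the plus strand for Nkg7 and chr13:113180966-113181165 on the minus strand for Gzmk.
Gzma: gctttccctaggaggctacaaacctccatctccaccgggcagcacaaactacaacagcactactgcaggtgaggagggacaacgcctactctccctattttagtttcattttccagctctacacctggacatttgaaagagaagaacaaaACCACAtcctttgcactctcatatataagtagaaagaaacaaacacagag
Gzmb: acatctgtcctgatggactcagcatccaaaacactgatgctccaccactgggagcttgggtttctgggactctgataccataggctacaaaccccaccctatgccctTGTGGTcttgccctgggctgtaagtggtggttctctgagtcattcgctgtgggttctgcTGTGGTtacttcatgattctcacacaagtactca
Prf1: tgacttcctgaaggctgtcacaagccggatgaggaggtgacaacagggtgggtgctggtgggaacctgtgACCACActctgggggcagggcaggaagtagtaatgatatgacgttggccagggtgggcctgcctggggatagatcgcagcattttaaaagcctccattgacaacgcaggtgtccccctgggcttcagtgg
Nkg7: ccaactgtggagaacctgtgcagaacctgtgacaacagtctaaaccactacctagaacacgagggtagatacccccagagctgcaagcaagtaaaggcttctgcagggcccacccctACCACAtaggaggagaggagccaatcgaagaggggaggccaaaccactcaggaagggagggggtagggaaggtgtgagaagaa
Gzmk: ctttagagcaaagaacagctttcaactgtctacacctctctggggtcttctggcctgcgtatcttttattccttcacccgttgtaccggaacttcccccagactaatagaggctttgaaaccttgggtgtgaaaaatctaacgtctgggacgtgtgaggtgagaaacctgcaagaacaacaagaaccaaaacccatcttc

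The hexamer occurred 2 times in the stretch of Gzmb, starting 93 and 34 bases before the gene start, and 1 time each in those of Gzma, Prf1 and Nkg7, at 50, 130 and 83 bases before it. It was not among the letters shown for Gzmk. The same stretch of Gzmc, not shown, held it 2 times, and Gzmc did not follow Gzmb or Prf1 (Pearson -0.19 and -0.14). Those of Gzmm, Srgn and Fasl did not hold it. Over RefSeq windows from 250 bases before to 50 bases after the start, 7 of the 11 windows of the 9 genes held it (7 of 9 genes; not Gzmk and Fasl), and 16.8% of 32851 such windows of all genes did. The T-box core GGTGTG was found in 5 of the 11 windows of the 9 genes (19.0% of all windows) and the ETS core GGAAGT in 5 (23.8%). The NFAT core GGAAAA was in 4 (23.4%), TATAAA in 1, of Srgn (13.6%), and the AP-1 site TGANTCA in 1, of Gzmb (7.81%). Both strands were read, none of the capitals shown overlaps a match to another of these motifs, and a match is a description of letters, not a binding site.

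One control library stood apart and bears on every comparison. In control replicate 1, 7308 genes reached 1 TPM, and in the other 8 libraries 11088 to 11711 did, and its median Spearman correlation with them across genes was 0.737 against 0.936 to 0.955. The sorted cells carried T cell transcripts in every library: the 8 T cell markers summed to 5118 to 6647 TPM in knockouts, 6446 to 7345 TPM in control replicates 2 to 5 and 2458 TPM in control replicate 1, and Cd4 stood between 317.1 and 492.0 TPM throughout. Macrophage and monocyte markers were also present, 10 of 10, with a sum of 8485 to 15212 TPM in knockouts and 2354 to 9421 TPM in control replicates 2 to 5; all 10 had positive differences with and without control replicate 1, 9 of 10 at an unadjusted p under 0.05 in limma (6.39% and 12.8% of all genes) and 0 of 10 past the adjusted threshold. Lyz2 was the largest part of the macrophage sums, at 4638 to 8176 TPM in knockouts and 1324 to 5598 TPM in control replicates 2 to 5. The groups were separate for 0 of the 10 macrophage markers with and without control replicate 1 (4.93% and 7.02% of all genes). Cd160 itself stood at 5.44 to 18.8 TPM in knockout and 31.8 to 212.4 TPM in control libraries. Control replicates 3 and 5, which recur below, had the most Cd160 (212.4 and 151.2 TPM).

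The 9 genes covered a wide range of abundance in these cells. Without control replicate 1, the median over 8 libraries was 2581 TPM for Nkg7, 1264 TPM for Gzma, 1080 TPM for Srgn, 456 TPM for Gzmb, 134 TPM for Gzmk, 93.0 TPM for Fasl, 26.2 TPM for Prf1, 6.18 TPM for Gzmc and 2.95 TPM for Gzmm. Nkg7 thus exceeded 99.4% of the genes tested, and Gzmm 15.3%. Neighbours in this order were not always separate: Gzma, at 389.6 to 6561 TPM, took in the whole ranges of Gzmb, Srgn and Nkg7. Gzmk and Fasl overlapped, and so did Gzmc and Gzmm. Fasl, Prf1 and Gzmc did not overlap one another. Granzyme transcripts were mostly Gzma, which made up 39.1% to 78.5% of the summed TPM of the 10 granzyme rows in knockouts. The share was 62.7% to 85.1% in control replicates 2 to 5 and 92.7% in control replicate 1.

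None of the 9 genes differed between knockout and control libraries beyond the threshold, and in each of them the groups overlapped. In limma over all 9 libraries 0 of 9 passed an adjusted p of 0.05, where 0.0174% of all tested genes did, and 0 of 9 had an unadjusted p under 0.05, where 6.39% did. The adjusted p values ran from 0.745 to 0.923. Without control replicate 1, 0 of 9 passed the adjusted threshold (0.0262% of 11457 genes) and Nkg7 alone had an unadjusted p under 0.05 (12.8% of all genes); adjusted p values ran from 0.34 to 0.857. Knockout and control values were separate for 4.93% of all tested genes, and for 7.02% without that library, and for 0 of the 9 in either case. The smallest exact two-sided permutation p among the 9 was 0.0794, for Gzmk with 9 libraries; the smallest that these groups allow is 0.0159.

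Direction depended on control replicate 1. With all 9 libraries 3 of 9 differences were negative (lower in knockouts), and 13.3% of all tested genes had negative differences, the median of all genes being 0.46 on the log2(TPM + 1) scale and that of the 9 genes 0.18. Without control replicate 1 the difference was negative for 7 of 9, with 52.5% of all tested genes negative, a median of -0.29 for the 9 and -0.014 for all genes. The differences of Gzma, Gzmc and Nkg7 were negative in both fits and that of Gzmk positive; that of Gzmm was positive in both but negative under median-of-ratios scaling. Gzmb, Prf1, Srgn and Fasl took opposite signs in the pair of fits. The T cell markers were also negative without control replicate 1, 8 of 8, with a median of -0.24 and 4 of 8 at an unadjusted p under 0.05 (12.8% of all genes); with all 9 libraries 4 of 8 were negative. Their part in the 7 of 9 was not tested. When all 9 libraries were scaled by the median of ratios, which moved the median of all genes to 0.018, 7 of the 9 genes were negative, Prf1 and Gzmk being the exceptions.

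**Figure D1:**
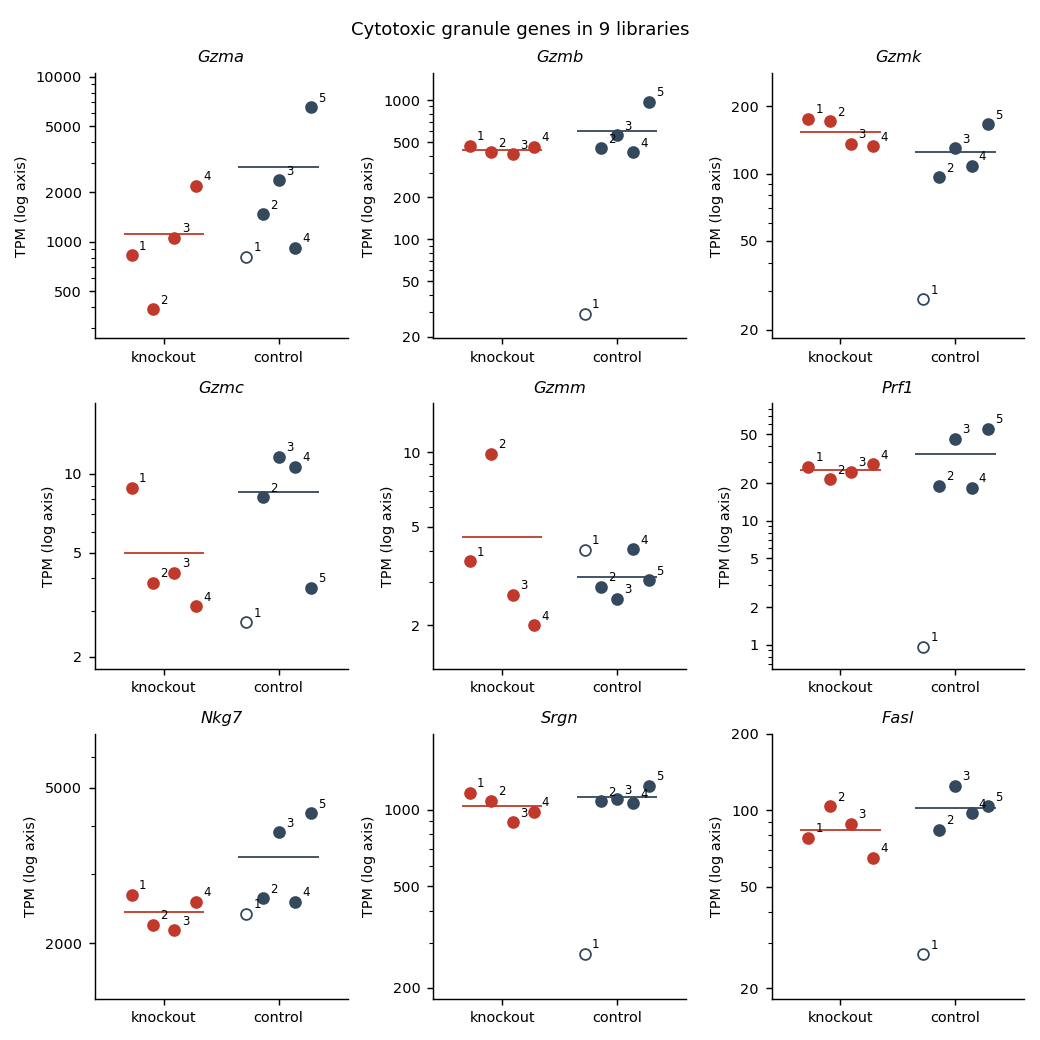
TPM of each of the 9 genes per library on log axes, knockout in red and control in blue, with replicate numbers; lines are the means of the 4 knockouts and of control replicates 2 to 5, and the open point is control replicate 1. Control replicate 1 is the lowest library for 6 genes, and control replicate 5 the highest for 5.

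Gzma varied widely within both groups, and its group means were the farthest apart in TPM. Knockout replicates 1 to 4 stood at 830.0, 389.6, 1057 and 2191 TPM. The controls, in the same order, had 811.6, 1472, 2365, 918.9 and 6561 TPM. The highest library was control replicate 5 and the lowest knockout replicate 2, while knockout replicate 4 lay above 3 of the controls. Knockouts averaged 1117 ± 768 TPM (SD, n = 4), controls 2426 ± 2392 TPM (SD, n = 5). limma put the log2 difference at -0.92 (standard error 0.63, adjusted p 0.745). Without control replicate 1 it was -1.20, and its 95% interval ran from -2.69 to 0.29.

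Gzmk, the other granzyme of the chromosome 13 cluster, ran the other way. Knockout replicates 1 to 4 stood at 175.5, 171.9, 135.8 and 132.3 TPM. Control replicates 1 to 5 had 27.5, 96.5, 130.2, 108.4 and 166.4 TPM. All 4 knockout libraries lay above the control median, and only control replicate 5 reached into their range. Knockouts averaged 153.9 ± 23.0 TPM (SD, n = 4), controls 105.8 ± 51.2 TPM (SD, n = 5), and limma put the log2 difference at 0.74 (adjusted p 0.745). The exact permutation p was 0.0794 before and 0.511 after adjustment over all genes. No gene fell below 0.322 after adjustment in this permutation test, so it called none. Leaving out control replicate 1 brought the estimate to 0.31 (95% interval -0.087 to 0.71).

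The balance of Gzma to Gzmk also varied widely. In knockout replicates 1 to 4 there were 4.73, 2.27, 7.78 and 16.6 units of Gzma TPM per unit of Gzmk TPM, and in control replicates 1 to 5 there were 29.5, 15.3, 18.2, 8.48 and 39.4. Of the knockout libraries, replicate 4 lay inside the control range and the other 3 below it. In knockout replicate 2 alone Gzmb exceeded Gzma, with 0.923 units of Gzma TPM per unit of Gzmb TPM, against 1.77 to 4.75 in the other knockouts and 2.17 to 6.73 in control replicates 2 to 5. These ratios were looked at after the levels were known and were not tested.

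**Figure D2:**
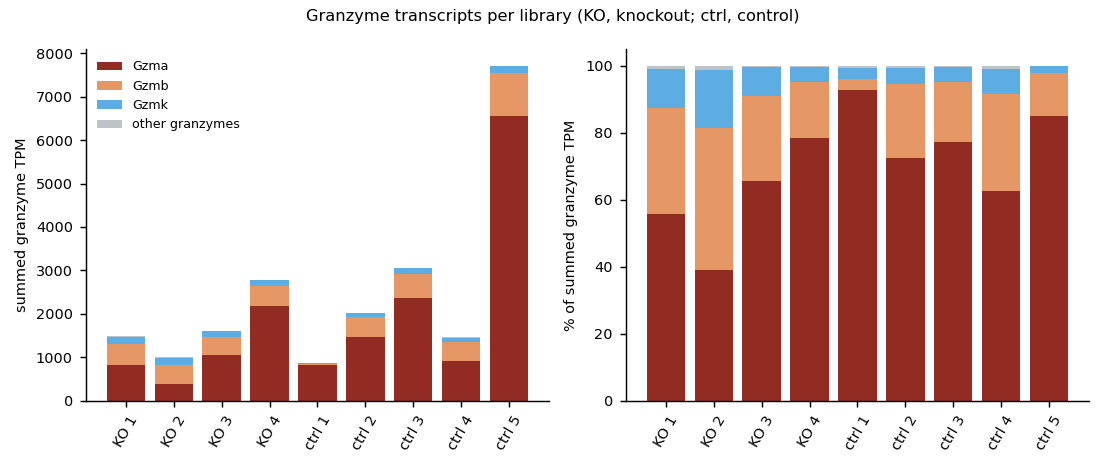
Summed TPM of the 10 granzyme rows per library (left) and the percentage of that sum held by each granzyme (right). The sum reaches 7709 TPM in control replicate 5 and lies between 875.3 and 3066 TPM in the other 8 libraries, and Gzma holds 39.1% to 92.7% of it.

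Gzmb was nearly constant among the knockout libraries. Knockout replicates 1 to 4 had 469.5, 422.3, 409.3 and 461.4 TPM, averaging 440.6 ± 29.3 TPM (SD, n = 4), which is a coefficient of variation of 6.66%. Control replicates 2 to 5 had 450.2, 557.1, 423.1 and 974.8 TPM, averaging 601.3 ± 255.6 TPM (SD, n = 4), and control replicate 1 had 29.2 TPM. Control replicates 2 and 4 thus lay inside the knockout range, and control replicates 3 and 5 above it. The log2 difference was 0.48 over all 9 libraries (standard error 0.83, adjusted p 0.759 in limma), and -0.37 without control replicate 1, with a 95% interval from -0.90 to 0.17 and an adjusted p of 0.576.

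Gzmc and Gzmm were scarce, and the remaining granzymes of the mouse clusters were close to absent from the table. For Gzmc, knockout replicates 1 to 4 gave 8.85, 3.84, 4.19 and 3.12 TPM and control replicates 1 to 5 gave 2.71, 8.16, 11.6, 10.7 and 3.68 TPM. Control replicates 3 and 4 lay above all knockouts and control replicate 2 above all but knockout replicate 1, while control replicates 1 and 5 were low. limma gave it a log2 difference of -0.40 (adjusted p 0.745), and -0.66 without control replicate 1, with a 95% interval from -1.49 to 0.18. For Gzmm the knockouts gave 3.63, 9.86, 2.65 and 2.00 TPM and the controls 4.04, 2.86, 2.56, 4.05 and 3.04 TPM, so that its higher knockout mean of 4.54 ± 3.61 TPM (SD, n = 4) rested on knockout replicate 2. With that library left out the log2 difference of Gzmm went from 0.18 to -0.20.

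Of the other 5 cluster granzymes, Gzmd, Gzmg and Gzmn were listed at 0 in all 9 libraries, and Gzme and Gzmf did not exceed 0.56 and 0.52 TPM. None of the 5 passed the filter. Granzyme transcripts resemble each other, which matters for how reads are shared among them: in a local alignment of the longest GENCODE transcripts, Gzmc matched Gzmn at 80.3% of 508 columns and Gzmb at 77.0% of 846 columns. RSEM, named in the submitters' processing notes, divides reads that fit several transcripts by estimation; its settings are not given in the sources used here, and the low Gzmc values are uncertain to that extent.

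Prf1 split the control libraries. Perforin transcripts measured 27.4, 21.7, 24.98 and 28.6 TPM in knockouts, and 0.96, 19.2, 46.0, 18.5 and 55.4 TPM in controls, each in the order of the replicate numbers. All 4 knockouts lay between control replicates 2 and 4 below them and control replicates 3 and 5 above them. Knockouts averaged 25.7 ± 3.05 TPM (SD, n = 4), controls 27.99 ± 22.2 TPM (SD, n = 5), or 34.8 ± 18.8 TPM (SD, n = 4) without control replicate 1. limma put the log2 difference at 0.54 (standard error 0.85, adjusted p 0.751), and at -0.27 without control replicate 1, with a 95% interval from -1.06 to 0.52.

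Nkg7, the most abundant of the 9, came closest to a difference once control replicate 1 was left out. The knockouts measured 2664, 2230, 2159 and 2553 TPM and the controls 2381, 2606, 3847, 2556 and 4308 TPM. Control replicates 3 and 5 were above every knockout, whereas control replicates 2 and 4 and knockout replicates 1 and 4 shared a range. Knockouts averaged 2401 ± 245 TPM (SD, n = 4) and controls 3139 ± 876 TPM (SD, n = 5), for which limma gave -0.35 on the log2 scale (adjusted p 0.745). Without control replicate 1 limma gave -0.44 (standard error 0.18, unadjusted p 0.0352, adjusted p 0.34). The exact permutation p was 0.114, and the smallest that 8 libraries allow is 0.0286. The difference was -0.11 when control replicates 1, 3 and 5 were all left out, a choice made after the values were seen.

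Srgn and Fasl were low in control replicate 1 and overlapped between the groups in the other libraries. The knockouts held 1166, 1083, 894.3 and 981.8 TPM of Srgn, control replicates 2 to 5 held 1077, 1099, 1059 and 1242 TPM, and control replicate 1 held 271.8 TPM. The difference without that library was -0.12, with a 95% interval from -0.34 to 0.092, the narrowest of the 9, and 0.28 with it, both on the log2 scale. Serglycin is also made by myeloid cells, whose 10 markers had a median log2 difference of 1.33 without control replicate 1; their part in the Srgn level was not tested. Of Fasl the knockouts held 78.2, 103.7, 88.6 and 65.3 TPM, control replicates 2 to 5 held 83.9, 125.3, 97.5 and 104.0 TPM, and control replicate 1 held 27.3 TPM. Over 9 libraries limma gave 0.079 (adjusted p 0.923), and -0.29 without control replicate 1, with a 95% interval from -0.66 to 0.077.

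**Figure D3:**
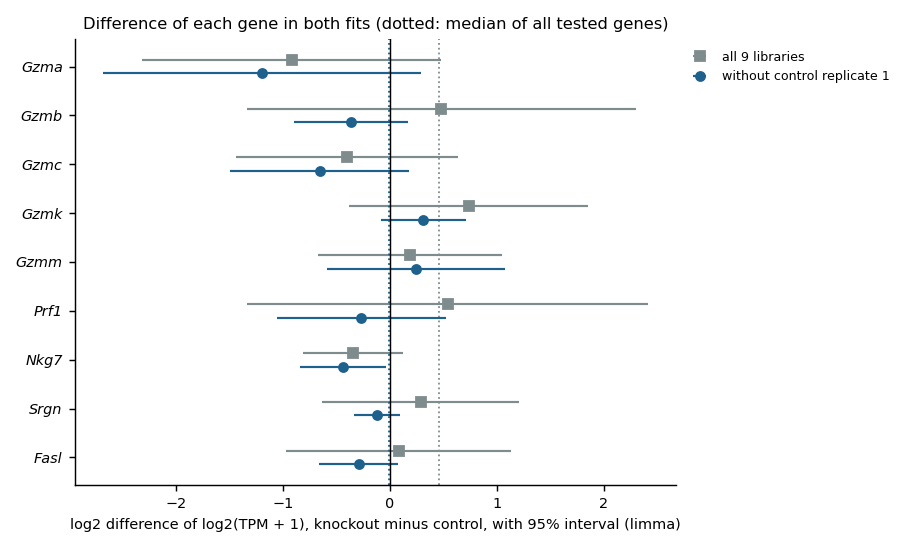
Log2 difference (knockout minus control) of each gene with its 95% interval from limma, over all 9 libraries (grey squares) and without control replicate 1 (blue circles); dotted lines are the medians of all tested genes, 0.46 and -0.014. Of the 18 intervals, that of Nkg7 without control replicate 1 is the one that leaves out 0, and the points of Gzmb, Prf1, Srgn and Fasl lie on opposite sides of 0 in the 2 fits.

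The 9 genes were very unequally reduced in control replicate 1. Prf1 stood there at 2.76% and Gzmb at 4.85% of the mean of the other 4 controls, followed by Gzmk at 21.9%, Srgn at 24.3%, Fasl at 26.5%, Gzma at 28.7% and Gzmc at 31.8%. Nkg7 kept 71.5%, and Gzmm stood at 129.2%. Nkg7, Gzmc and Gzma have the shortest transcripts of the 9, at 881, 894 and 996 bp, and Prf1 has the longest, at 2474 bp; Gzmb, at 1436 bp, was further reduced than Gzmk and Gzmm, nearest to it in length. Across all tested genes the median log2 difference between this library and the mean of the other controls was -0.27 for transcripts up to 1000 bp, -1.59 from 1000 to 1500 bp and -2.36 from 1500 to 2500 bp. It went no lower beyond that, at -2.30 from 2500 to 5000 bp and -2.004 over 5000 bp. Control replicate 1 held 27.8 units of Gzma TPM per unit of Gzmb TPM. Gzmb, at -4.23, and Gzma, at -1.40, both lay below the medians of their length ranges, -1.59 and -0.27. The part of transcript length in this balance was not tested.

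**Figure D4:**
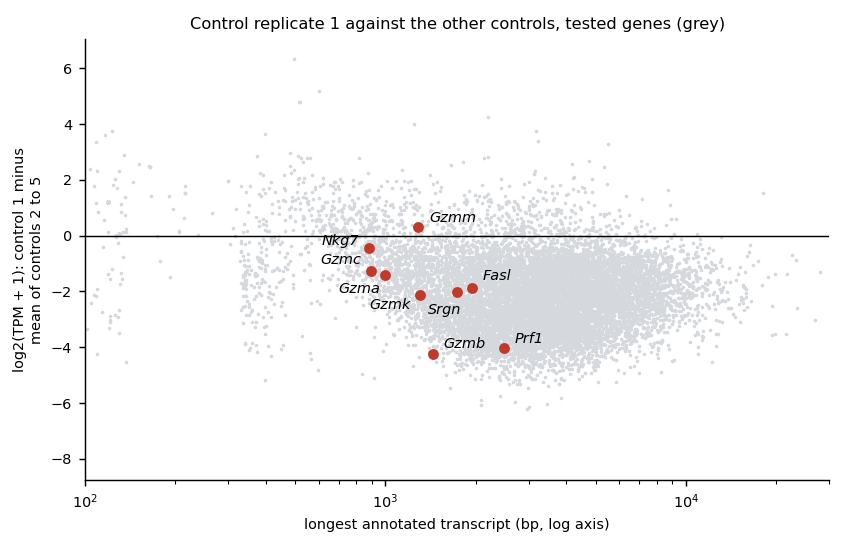
Log2(TPM + 1) in control replicate 1 minus the mean over control replicates 2 to 5, against the longest annotated transcript on a log axis; grey points are tested genes within the axis limits, red points the 9 genes. Gzmm lies above 0, Nkg7 just below it at -0.45, and Prf1 and Gzmb are lowest at -4.03 and -4.23.

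Among the 8 other libraries, Gzma, Gzmb, Prf1 and Nkg7 had the highest Pearson correlations with one another. The Pearson correlation of log2(TPM + 1) was 0.90 between Gzmb and Nkg7, 0.88 between Prf1 and Nkg7, 0.86 between Gzmb and Prf1, 0.84 between Gzma and Gzmb, 0.83 between Gzma and Nkg7 and 0.79 between Gzma and Prf1. Rank (Spearman) coefficients of the same pairs were mostly lower, at 0.93, 0.55, 0.76, 0.67, 0.57 and 0.69 in that order. By Spearman, Srgn stood among them, with 0.83 for Nkg7 and 0.76 for Gzmb. Its Pearson coefficients with these genes were 0.70 and 0.69. Among 10864 named genes Gzma ranked 91st by Pearson coefficient for Gzmb and 319th for Prf1. By Pearson, Gzmk and Prf1 had 0.45, Gzmb and Gzmc -0.19, and Gzma and Gzmm -0.69. Over all 9 libraries the Pearson coefficients of Gzmb were 0.98 with Prf1 and Srgn, 0.93 with Gzmk and 0.91 with Fasl. With Nkg7 and Gzma they were 0.45 and 0.44. Prf1 had 0.94 with Srgn, 0.93 with Gzmk, 0.90 with Fasl, 0.52 with Nkg7 and 0.49 with Gzma. These are descriptions over 8 or 9 libraries that share a TPM total. Control replicates 3 and 5 were the highest 2 libraries for Gzma, Gzmb, Prf1 and Nkg7.

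Ranked by the same measure among 10864 named genes, those most like Gzmb over the 8 libraries were Wscd2 (0.98), Asb3 (0.96), Lgalsl (0.96), Nr4a2 (0.96) and Klra3 (0.96), each highest in control replicate 5. The Spearman coefficients were lower, at 0.74 for Wscd2, 0.71 for Asb3, Lgalsl and Klra3, and 0.90 for Nr4a2, a nuclear receptor induced by T cell receptor signals. Those most like Prf1 were B4galt4 (0.98), Phf11c (0.97), Ndufaf7 (0.96), Fancf (0.96) and Ccl5 (0.95), the last a chemokine of cytotoxic cells that stood at 6103 to 10891 TPM in knockouts and 8774, 19234, 7083 and 29484 TPM in control replicates 2 to 5. Over all 9 libraries the Pearson coefficients of the genes named for Gzmb were 0.91, 0.99, 0.98, 0.85 and 0.46 in that order. Those of the genes named for Prf1 were 1.00, 0.99, 0.99, 0.46 and -0.34. Some of these genes were scarce: Wscd2 did not exceed 3.28 TPM in any library, nor Fancf 3.15 TPM. Klra3 stood at 29.1 TPM in control replicate 5 and did not exceed 2.77 TPM in any other.

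Some markers of other lymphocytes were highest in the same 2 libraries. Control replicates 3 and 5 had 81.2 and 86.1 TPM of Cd8a, control replicates 2 and 4 had 18.7 and 3.06 TPM, and the knockouts 3.92 to 23.9 TPM, whereas Cd8b1, the other CD8 chain, did not exceed 9.88 TPM in any library and stood at 4.42 and 1.31 TPM in those 2. The constant gene of the T cell receptor gamma chain Tcrg-C1 stood at 275.5 and 253.7 TPM there and at 50.6 to 85.1 TPM in the other 6, but Trdc, of the delta chain, at 11.6 and 1.44 TPM against 0.51 to 11.4 TPM. The 9 NK markers summed to 113.0 and 59.9 TPM in control replicates 3 and 5, and to 8.78 to 26.9 TPM in the other 6 libraries without control replicate 1. Most of these sums was Cd244, at 70.2 and 52.7 TPM; the other 8 NK markers summed to 42.8 TPM in control replicate 3 but 7.27 TPM in control replicate 5, against 2.33 to 13.5 TPM in the other 6. Of the defining NK receptors, Ncr1 stood at 23.3 TPM in control replicate 3 and 0.79 TPM in control replicate 5. Mast cells can also make granzymes, but their 9 markers summed to 99.6 TPM in control replicate 5, 55.0 TPM in knockout replicate 1 93.7 TPM in control replicate 1 and at most 1.38 TPM in the other 6, mainly from Mcpt1 and Mcpt2. Macrophage and monocyte markers were lowest in control replicates 3 and 5 among the 8, at 2540 and 2354 TPM. The part of these cells in the levels of Gzma, Gzmb, Prf1 and Nkg7 was not tested.

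Leaving out these libraries as well as control replicate 1 left 4 knockouts against 2 controls. The log2 differences were then -0.32 for Gzma, 0.011 for Gzmb, 0.42 for Prf1, -0.11 for Nkg7, 0.57 for Gzmk and -0.87 for Gzmc, with no adjusted p in limma below 0.647. Gzmk, Prf1 and Gzmc, 3 of the 9, had unadjusted p values under 0.05 (0.00719, 0.0292 and 0.0462), as did 6.63% of all genes. The choice of these libraries followed the values of Cd8a and the 9 genes, so these differences and p values do not test an effect of the knockout. In bulk RNA a larger share of another cell type and more transcript per CD4+ T cell cannot be told apart.

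**Figure D5:**
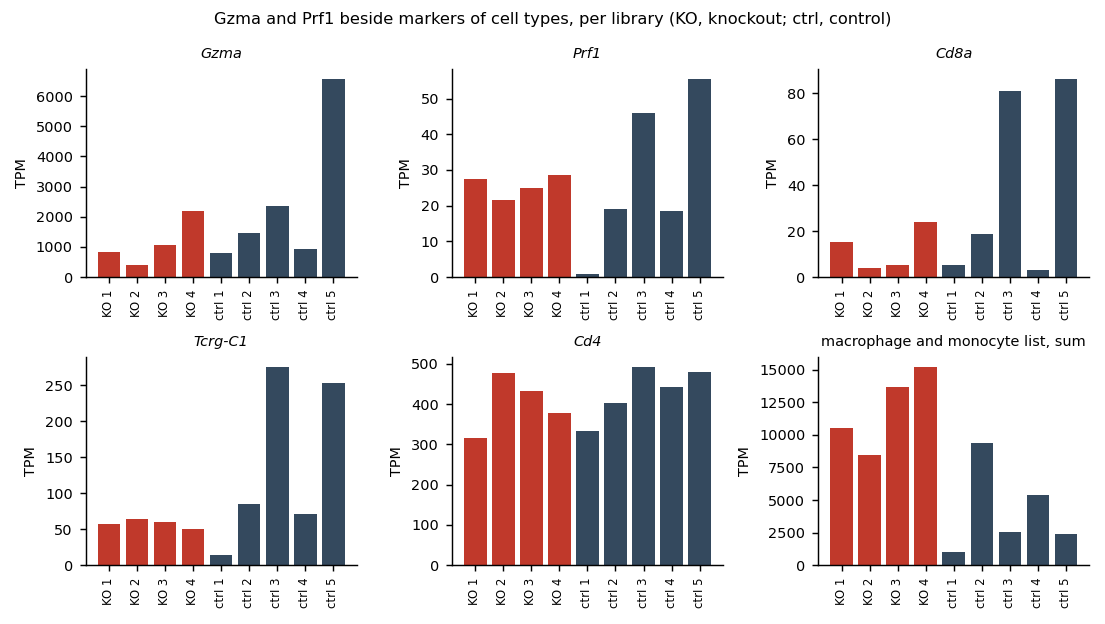
TPM of Gzma, Prf1, Cd8a, Tcrg-C1 and Cd4 and the summed TPM of 10 macrophage and monocyte markers in each library, knockout in red and control in blue. Prf1, Cd8a and Tcrg-C1 are highest in control replicates 3 and 5, Cd4 stays between 317.1 and 492.0 TPM, and the macrophage sum is highest in knockout replicate 4.

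Genes that mature, release, inhibit or control the granules were read beside the 9, and 0 of the 50 tested in 5 lists passed the adjusted threshold in limma with or without control replicate 1. With all 9 libraries, where 13.3% of all genes were negative, 43 of the 50 were positive. At an unadjusted p under 0.05 there were 3 of 50 with all libraries, where 6.39% of all genes passed, and 7 of 50 without control replicate 1, where 12.8% did; both counts are near those shares. Of 14 genes of granule maturation and release, 9 had positive and 5 negative differences without control replicate 1 (52.5% of all genes were negative), and 4 had an unadjusted p under 0.05 (12.8% of all genes). These were Lamp2 at 0.93, Lamp1 at 0.80, Ctsc, the protease that activates granzymes, at 1.14 and Ctsh at 1.32, with adjusted p values of 0.141, 0.154, 0.185 and 0.24 in limma. Knockouts averaged 191.0 ± 52.9 TPM of Ctsc (SD, n = 4), against 90.2 ± 41.4 TPM (SD, n = 4) for the controls other than replicate 1. All 4 are lysosomal genes that macrophages express too; the part of the macrophage markers given above in these values was not tested. The genes of granule docking and fusion lay near 0: Rab27a had -0.0053, Unc13d -0.011, Stx11 0.13 and Stxbp2 -0.091.

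In a list of protease inhibitors (serpins), not all of them known to act on granzymes, 3 of 4 tested genes had positive differences without control replicate 1. Serpina3g had 0.41, Serpinb6a 0.14, Serpinb9, the inhibitor of granzyme B in lymphocytes, 0.067 and Serpinb6b -0.12, with adjusted p values from 0.514 to 0.929 in limma. In the list of death ligands, receptors and caspases 5 of 10 were positive and 5 negative. The cytokine gene Tnf measured 178.6, 127.9, 107.6 and 125.0 TPM in knockouts and 157.9, 256.9, 135.7 and 268.1 TPM in control replicates 2 to 5, again highest in control replicates 3 and 5. limma gave Tnf -0.56 (unadjusted p 0.0482, adjusted p 0.386). Bid, a target of granzyme B, had 0.34, Tnfrsf10b -0.27 and Lta 0.30.

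The transcription factors were divided evenly, 6 of 12 positive and 6 negative without control replicate 1. Zeb2, a factor of terminal effector cells that macrophages also express, had 0.57 on the log2 scale in limma (adjusted p 0.185). Eomes, the T-box factor of cytotoxic cells, was scarce at 0.93 to 3.6 TPM in all 9 libraries (log2 difference 0.48), Hopx had -0.29 and Zbtb7b, the factor that fixes the CD4 lineage, 0.31. Of 10 other effector genes of cytotoxic cells 4 were negative with all 9 libraries (13.3% of all genes), with a median of 0.071 against 0.46 for all genes. Without control replicate 1, 7 of 10 were negative (52.5% of all genes), with a median of -0.33 against -0.014 for all genes. Ctsw, a cathepsin of killer cells, measured 783.6, 624.9, 565.7 and 554.5 TPM in knockouts and 672.7, 1160, 772.7 and 913.7 TPM in control replicates 2 to 5, for which limma gave -0.46 (adjusted p 0.314). Ccl5 had -0.64, Slamf7 -0.27 and Cst7 -0.34.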

How the data were processed

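RNA of sorted colonic CD4+ T cells was measured in 9 libraries, 4 CD160 knockout and 5 control, grouped by their titles, and made by a modified SMART-Seq2 protocol with paired-end reads, per the labels' protocols. The authors deposited TPM, which sum to the same total in each library; per the submitters' processing notes the tools were RSEM 1.2.31, Bowtie2 2.2.9 and Trimmomatic 0.32, and the build GRCm38, with no settings given. TPM keeps no depth, so the depth of each library is unknown and no counting interval is given.

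Symbols were matched to RefSeq and GENCODE M21 (GRCm38); 53 of 23415 had no match. limma 3.58.1 in R 4.3.3 (eBayes with trend) was fitted on log2(TPM + 1), keeping any gene that reached 1 TPM in 4 or more libraries, with Benjamini-Hochberg adjustment over all of them at 0.05; differences are knockout minus control and understate changes of low genes. It was tested on simulated data. Single genes also had an exact two-sided permutation test over libraries (scipy 1.17.1). The 9 genes, the lists and the tests were chosen with earlier results of these data known; of each list up to 4 genes with the smallest unadjusted p without control replicate 1 are named, and Rab27a, Unc13d, Stx11 and Stxbp2 for their role. Motifs were chosen after the expression values were seen. Alternatives varied pseudocount, filter, scaling, variance model, replicate block and libraries. Replicate numbers paired no samples by the labels, and deviations of same-numbered libraries correlated at -0.017, -0.093, -0.14 and -0.089. Biopython 1.88 aligned transcripts.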

Additional observations from a re-analysis of the deposited data

Results flagged for a closer look

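Control replicate 1 was far below the other controls in 3 of the 18 gene and group combinations checked, by the gap to the nearest library as a share of the range of log2(TPM + 1) within the group. The share was 0.760 for Gzmb, at 29.2 TPM, 0.895 for Srgn, at 271.8 TPM, and 0.735 for Fasl, at 27.3 TPM, against a limit of 0.71 for 5 libraries. Chance flags about 1 in 20 such groups, and all 3 come from the same library. No knockout group was flagged.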

How the results depend on the processing

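Across 20 alternatives planned and 11 added after the data were seen, 0 of the 9 genes were called in limma in any. The smallest adjusted p among them was 0.084, for Nkg7 with library quality weights (log2 difference -0.57, unadjusted p 0.00586 in limma). In that fit 521 of 11495 genes were called. Nkg7 and Gzma (-1.46, unadjusted p 0.049, adjusted p 0.253) had unadjusted p values under 0.05 there, as did 2258 of all genes. Gzma, Gzmc and Nkg7 stayed negative and Gzmk positive in all 31, from -1.61 to -0.15, -1.23 to -0.22, -0.96 to -0.071 and 0.13 to 1.19. The median of the 9 ran from -0.51 to 0.44.

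The number of all genes called, 2 with all libraries, was 1 with a pseudocount of 5, 0 with no filter, with a filter of 5 TPM, with the replicate block (also without control replicate 1), without control replicates 3 and 5 and without 1, 3 and 5, 4 with median-of-ratios or quantile scaling without control replicate 1, and 521 (440 higher, 81 lower) with library quality weights. Leaving out 1 library, or control replicate 1 and 1 more, gave 0 to 15. Median-of-ratios scaling of all 9 called 3, 2 higher and 1 lower, and moved the median of all genes from 0.46 to 0.018.

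Signs turned for 5 genes. Where any 1 library, or control replicate 1 and 1 more, was left out, the log2 differences ranged from -0.51 to 0.89 for Gzmb, -0.20 to 0.47 for Gzmm, -0.51 to 0.94 for Prf1, -0.18 to 0.42 for Srgn and -0.40 to 0.25 for Fasl. Median-of-ratios scaling gave -0.12 for Gzmb, -0.37 for Gzmm, -0.33 for Srgn and -0.52 for Fasl, and without control replicate 1 -0.36 for Gzmb, -0.26 for Prf1, -0.12 for Srgn and -0.29 for Fasl. Quantile scaling gave -0.42 for Gzmm and -0.36 for Fasl, and without control replicate 1 -0.39 for Gzmb, -0.33 for Prf1, -0.065 for Srgn and -0.32 for Fasl. Quality weights gave -0.52 for Gzmb, -0.50 for Prf1, -0.18 for Srgn and -0.33 for Fasl. The replicate block without control replicate 1 gave -0.14 for Gzmb, -0.027 for Prf1, -0.13 for Srgn and -0.25 for Fasl; the numbers pair no samples. Without control replicates 1, 3 and 5 Srgn had -0.057 and Fasl -0.13; without 3 and 5 alone the values were 1.30 for Gzmb, 1.53 for Prf1, 0.60 for Srgn and 0.44 for Fasl. The cause of these turns was not tested. Gzmm did not pass the filter of 5 TPM.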
